A study of Malus domestica with 2 samples.

Results

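Auxin response genes were followed in fruit stalks (pedicels) of the apple cultivar Saika (Malus domestica). The members are all gene models whose annotation names auxin, Aux/IAA, indole-3-acetic acid, GH3, SAUR, a LOB domain or lateral organ boundaries, either in the whole table of gene models or on the sheets of differing genes. This gave 164 of 63541 gene models, of which 157 were annotated in the whole table and 7 on a sheet alone. They fall into 89 SAUR proteins, 30 Aux/IAA repressors, 30 LOB domain factors, 5 GH3 enzymes, 4 auxin efflux carriers, 4 dormancy/auxin associated proteins, 1 auxin response factor and 1 F-box auxin receptor.

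The study set the stalk of the fruit at the centre of the cluster against that of the fruits around it, and its title describes the apple as self-abscising and ties early fruit drop to the repressor IAA14/SLR and the response factor ARF7. Messenger RNA was sequenced on a Roche GS-FLX pyrosequencer. The groups are the central pedicel (1 library) and the lateral pedicel (1 library), both of Saika, and the labels name no treatment. The labels give no age, date, number of trees or number of stalks per library. With 1 library per group no difference has a replicate check, so a test speaks about this library pair, not about central and lateral stalks in general. In tissue RNA, fewer cells of a type and less RNA per cell cannot be told apart.

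Auxin enters the nucleus and binds F-box receptors of the TIR1/AFB family together with Aux/IAA proteins. The receptors are part of a ubiquitin ligase, so the bound Aux/IAA repressor is broken down and the auxin response factors (ARFs) that it held are freed. ARFs then switch on early genes, among them Aux/IAA genes themselves, SAUR genes, GH3 genes and, in roots, genes of LOB domain factors. Auxin moving out of the fruit through its stalk is known to hold back the abscission zone there.

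The central library held 18483 mapped sequences and the lateral library 18368, with 89.3% and 89.4% of them uniquely mapped. Per the file headers the counted units are trimmed contigs, so 1 sequence can stand for an unknown number of reads, and similar counts do not show that expression was alike. A count of 0 allows a share of up to 0.0162% of the central and 0.0163% of the lateral library, the share of 3 sequences. Annotation words for cell types found 8 central and 11 lateral sequences for chloroplast-bearing cells. For xylem they found 10 and 12, for epidermis 33 and 42, and for pollen 25 and 27. Those for meristem and abscission zone were 35 and 32. In the whole table no gene model carried the words for phloem (0 models). The authors' sheets of differing genes, headed CP and LP, were less even, with 7 CP and 16 LP entries for chloroplast-bearing cells, 1 and 7 for xylem, 1 and 2 for phloem, 12 and 8 for epidermis, 1 and 2 for pollen, and 9 and 3 for meristem and abscission zone. These words also hit broad gene families, such as pollen allergen and extensin, homeobox and NAC proteins, so a hit does not show its cell type. No gene in these lists marks a pedicel as such, and the part of these cell types in the results was not tested. The column prefixes C and L and the sheet names CP and LP were read as central and lateral pedicel from the sample titles, and the headers do not say in which library a listed gene is higher.

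Across the auxin genes the libraries held nearly the same number of sequences. The members summed to 37 sequences in the central library, a share of 0.200% (95% exact Clopper-Pearson interval 0.141% to 0.276%), and to 38 in the lateral library, a share of 0.207% (0.146% to 0.284%). The log2 ratio of these sums, lateral over central with 0.5 added, was 0.05, and its counting interval ran from -0.64 to 0.74. A sequence was found for 43 of the 164 members, or 26.2%, against 28.9% of all gene models. The 7 members annotated on a sheet alone came in through lists made on these same libraries. Among the 157 annotated in the whole table, 37, or 23.6%, had a sequence. These 157 summed to 27 central and 31 lateral sequences, at a log2 ratio of 0.20. Of the 43, 15 had more sequences in the central library, 20 had more in the lateral library and 8 had equal counts. All intervals cover counting error only, and they and the Fisher p-values treat each sequence as drawn independently. Since the sequences are contigs, neither measures the sampling error of expression.

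Most detected members had the lowest count possible, which for contigs does not by itself mean low expression. Of the 43 detected members, 26 had exactly 1 sequence in all, as had 8067 of all 18337 gene models with a sequence. Among the 43, 41 had at most 2 in either library. The exceptions were MDP0000809218, a match of the Arabidopsis auxin receptor AFB5, and MDP0000239820, a LOB domain factor. None of the members was called by the two-sided Fisher exact test (0 of 43, against 0% of the 18337 gene models with a sequence), for which a call needs a Benjamini-Hochberg adjusted p under 0.05 and a 2-fold difference. The smallest unadjusted p among members was 0.453 and every adjusted p was 1. Unadjusted p-values under 0.05 were found for 0 members and for 4 of all gene models. At such counts the test could call no member, so the absence of calls does not show that the libraries were alike. Even the AFB5 match, with the most sequences, could not reach an unadjusted p below 0.00764.

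**Figure D1:**
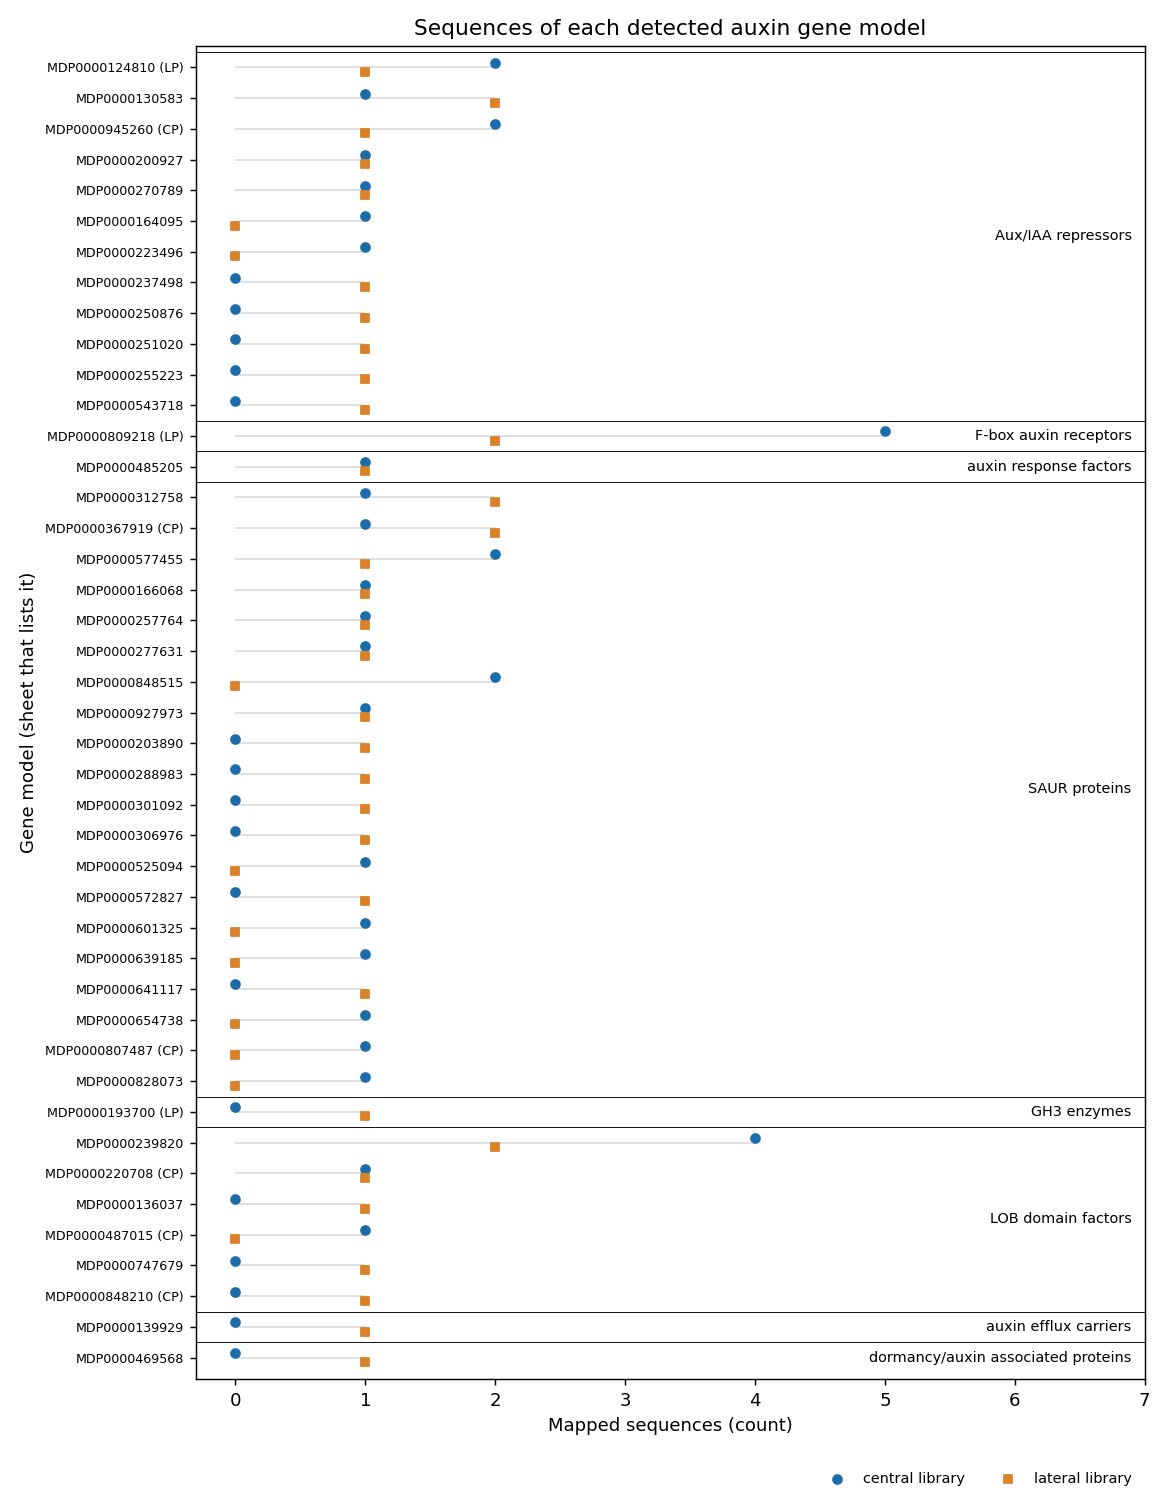
Mapped sequences (horizontal axis, count) of each of the 43 detected auxin gene models (vertical axis, grouped by family) in the central library (circles) and the lateral library (squares); the sheet that lists a model stands in brackets. The AFB5 match MDP0000809218, with 5 and 2 sequences, and the LOB domain factor MDP0000239820, with 4 and 2, reach past 2 sequences.

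Of the members, 11 were at least 2-fold higher in the central library and 17 in the lateral library, after scaling to the library total and adding 0.5 to each count. Among all gene models with a sequence these shares were 28.3% and 27.9%. On that scale 1 sequence against none already exceeds 2-fold, so this count describes mainly which library held the lone sequence. Found only in the central library were 10 members and found only in the lateral library 17, or 23.3% and 39.5% of the 43. Over all detected gene models the shares were 26.6% and 26.1%. The median log2 ratio of the detected members was 0.01, and that of all detected gene models was also 0.01.

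The receptor was the member with the most sequences. It is a member through its LP sheet annotation alone, so its values are not independent of the authors' selection on these same libraries. MDP0000809218, matched on the LP sheet to AT5G49980, had 5 central and 2 lateral sequences, all of them uniquely mapped. AFB5 is an F-box protein that in Arabidopsis binds auxin and the auxin-like herbicide picloram. The central library thus held the higher count, 2.48 times the lateral one after scaling, with a 95% exact interval from 0.407 to 26.1 that includes equality. The Fisher exact test gave an unadjusted p of 0.453, and even with all 7 sequences in the same library its p could not have gone below 0.00764. Scaled by its coding length of 1920 bases, the deposited RPKM was 141 (central) and 56.7 (lateral). The authors' deposited LP sheet lists it at an FDR of 3.09e-14, and the headers do not say in which library a listed gene is higher.

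Among the Aux/IAA repressors, 12 of 30 gene models had a sequence, with 9 in the central library (95% exact Poisson interval 4.12 to 17.1) and 11 in the lateral library (5.49 to 19.7). More central sequences were found for 4 of them, more lateral sequences for 6, and equal counts for 2. The detected repressors had a median coding length of 940.5 bases, against 585 bases for those without a sequence. Over all gene models these medians were 1353 and 711 bases, so the gap is not particular to the repressors. Of all gene models, 92.2% have a length that is a multiple of 3, so most models hold no untranslated parts. The counting interval of the log2 ratio, 0.28, ran from -1.11 to 1.75.

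MDP0000124810, the match of IAA14/SLR (AT4G14550), had 2 central sequences and 1 lateral sequence, and its RPKM was 105 and 53.1. In Arabidopsis IAA14 holds back ARF7 and ARF19, and a form of it that resists breakdown stops lateral root formation. Its FDR on the LP sheet, 1.18e-10, is lower than that of 56.1% of the sheet's entries. MDP0000945260, whose match AT1G04240 is IAA3/SHY2, also had 2 central sequences and 1 lateral sequence, at an RPKM of 182 and 91.7. In Arabidopsis IAA3 limits the size of the root meristem. It was on the CP sheet with a deposited FDR of 0, a value that 164 entries of that sheet share. The 2 genes thus had the same counts and lay on opposite sheets.

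In both genes the whole table gives no Aux/IAA annotation, only the word unintegrated and the same domain tag. The 28 repressors annotated in the whole table had 5 central and 9 lateral sequences. MDP0000130583 had 1 central and 2 lateral sequences, while MDP0000200927 and MDP0000270789 had 1 in each library. The central library alone held MDP0000164095 and MDP0000223496, with 1 sequence each. The lateral library alone held MDP0000237498, MDP0000250876, MDP0000251020, MDP0000255223 and MDP0000543718, with 1 sequence each, and that of MDP0000251020 was not uniquely mapped. None of these 10 was on a sheet.

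**Figure D2:**
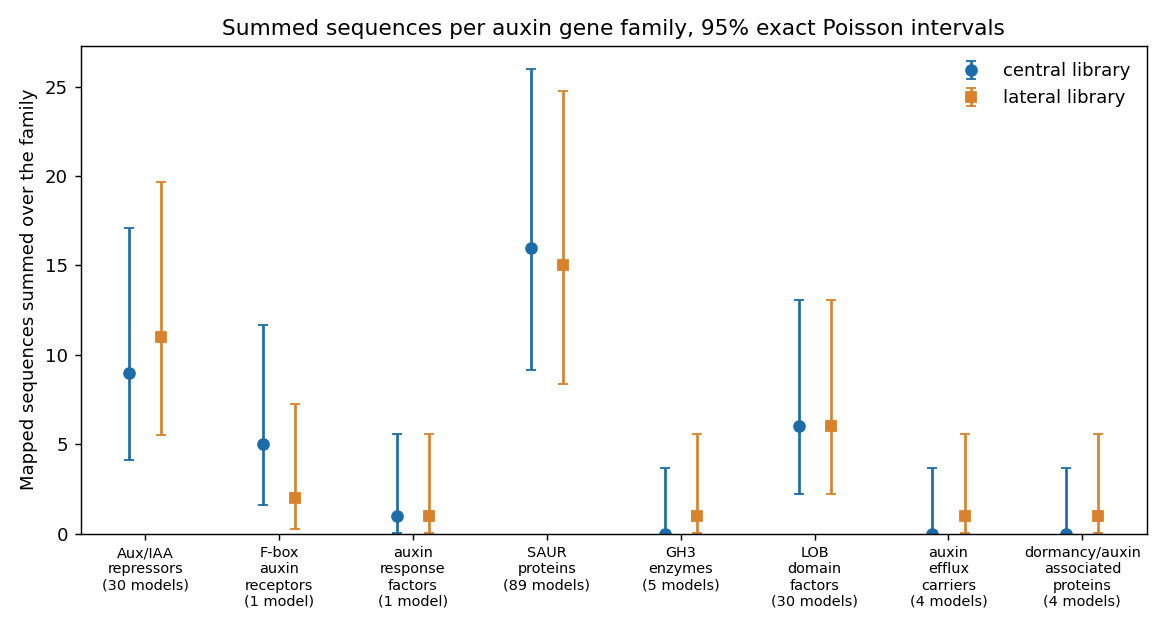
Mapped sequences summed over the members of each auxin gene family (vertical axis, count) in the central library (circles) and the lateral library (squares), with 95% exact Poisson intervals. The intervals of both libraries overlap in all 8 families, from 16 and 15 sequences in SAUR proteins down to 0 and 1 in the efflux carriers.

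The response factors that Aux/IAA proteins hold back were represented by 1 annotated gene model. The whole table leaves 23630 of 63541 gene models without a description and calls 16014 unintegrated, so all family sizes here may be too low. MDP0000485205 had 1 sequence in each library, at an RPKM of 55.5 and 55.8, and its lateral sequence was not uniquely mapped. Other ARFs may stand in the table under their DNA-binding domain, called B3, which many other plant transcription factors share. The 19 gene models with that domain held 1 central and 3 lateral sequences over 4 detected models.

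SAUR proteins are small proteins, many of which are made within minutes of auxin reaching a tissue and promote cell expansion. They were the largest family, with a median coding length of 459 bases against 879 bases over all gene models. A sequence was found for 20 of 89, or 22.5%, with 16 in the central library (exact Poisson interval 9.15 to 26.0) and 15 in the lateral library (8.40 to 24.7). More central sequences were found for 8, more lateral sequences for 8, and equal counts for 4. The log2 ratio of the sums was -0.08, and its counting interval ran from -1.20 to 1.03.

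Within the SAUR family the highest RPKM of any auxin gene belonged to MDP0000577455, with 296 (central) and 149 (lateral). It rests on 2 central sequences and 1 lateral sequence over 366 bases. MDP0000848515 had 2 central sequences and none in the lateral library, at a central RPKM of 258. MDP0000312758 and MDP0000367919 ran the other way, with 1 central and 2 lateral sequences each. Of the remaining detected SAUR genes, 6 had a lone central sequence, 6 had a lone lateral sequence and 4 had 1 in each library.

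The 2 SAUR genes on a sheet were both on the CP sheet. MDP0000807487, matched to AT3G60690, had 1 central sequence and none in the lateral library (deposited FDR 6.28e-13). MDP0000367919, matched to AT2G46690, had more sequences in the lateral than in the central library, and the headers give the CP sheet no direction. Its deposited FDR was 3.24e-05. A deposited FDR higher than this was given to 3.79% of the CP entries. The longest SAUR model, MDP0000572827 with 2994 bases, had 1 lateral sequence and the lowest RPKM above 0 of all members, 18.2.

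**Figure D3:**
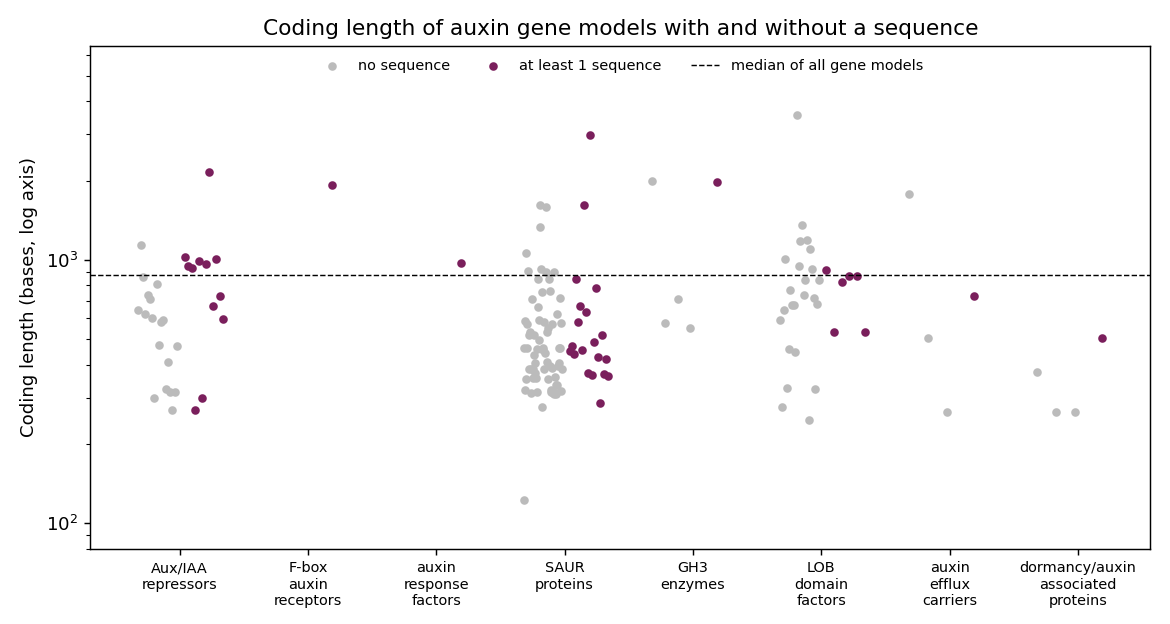
Coding length of each auxin gene model in bases (vertical axis, log scale) by family, with models without a sequence in grey and models with at least 1 sequence in purple; the dashed line is the median of all gene models, 879 bases. Detected Aux/IAA repressors had a median length of 940.5 bases and those without a sequence 585, while in SAUR proteins the medians were 462 and 459. Over all gene models they were 1353 and 711.

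GH3 enzymes join amino acids to plant hormones, which takes auxin out of its active form and turns jasmonate into its active form. Of 5 gene models, 3 were annotated in the whole table and had no sequence. The other 2 were on the LP sheet, both matched to AT2G46370, which is JAR1, the enzyme that in Arabidopsis joins jasmonate to isoleucine. MDP0000193700 had no central sequence and 1 lateral sequence, at a lateral RPKM of 27.5 over 1980 bases (deposited FDR 4.01e-11). MDP0000233483, of 1986 bases, had no sequence in either library, like 159 of the 741 LP entries in all, and a deposited FDR of 1.34e-05. Only 0.945% of the LP entries had a higher FDR. The lone lateral sequence of MDP0000193700 was uniquely mapped.

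LOB domain factors are transcription factors found only in plants, and some of them act at the borders of organs or downstream of ARF7 in root branching. A sequence was found for 6 of 30, with 6 in the central library (exact Poisson interval 2.20 to 13.1) and 6 in the lateral library (2.20 to 13.1). MDP0000239820 had 4 central and 2 lateral sequences, of which 3 and 2 were uniquely mapped. Its RPKM was 261 (central) and 132 (lateral). The ratio of 1.99 in favour of the central library had an exact interval from 0.285 to 22.0, and the Fisher exact test gave an unadjusted p of 0.687. No sheet lists this gene, and the files give it no Arabidopsis match.

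The sheets held 3 LOB domain genes, all on the CP sheet. MDP0000487015 is matched to LBD38 (AT3G49940), which in Arabidopsis restrains anthocyanin synthesis and nitrate response genes. It had 1 central sequence, which was not uniquely mapped, and none in the lateral library (deposited FDR 8.70e-10). Another LOB model of the same length, 867 bases, MDP0000747679, had 1 lateral sequence that was not uniquely mapped either. The assignment of either sequence is thus uncertain, and whether both map to the same genes was not tested. MDP0000848210, matched to LBD25 (AT3G27650), a gene named in Arabidopsis for its lower level in darkness and with auxin, had no central sequence and 1 lateral sequence (deposited FDR 3.46e-12). MDP0000220708, matched to LBD21 (AT3G11090), had 1 sequence in each library (deposited FDR 1.41e-06). MDP0000136037, on no sheet, had 1 lateral sequence.

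Among auxin efflux carriers, 1 of 4 gene models had a sequence, a share close to that of all members. Carriers of this domain include the PIN proteins, which set the direction in which auxin leaves a cell. MDP0000139929 had 1 lateral sequence and no central one. Dormancy/auxin associated proteins, a small family named for transcripts of dormant buds, likewise had 1 lateral sequence, of MDP0000469568, over 4 gene models. No efflux carrier and no member of the dormancy family was on a sheet (0 entries).

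The RPKM of the detected members ran from 18.2 to 296. Each value is the count scaled by length and library total, so at 1 to 5 sequences it follows the length of the gene model. By Kal's Z-test the authors' deposited table puts 35 members at an FDR below 0.05, of which 15 were higher in the central library and 20 in the lateral one. Over all gene models with a sequence, 34.0% were called higher in the central library and 33.7% in the lateral one. All 35 members with unequal counts were called and none of the 8 with equal counts (0 called). Of the 35 calls, 26 rest on a lone sequence.

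**Figure D4:**
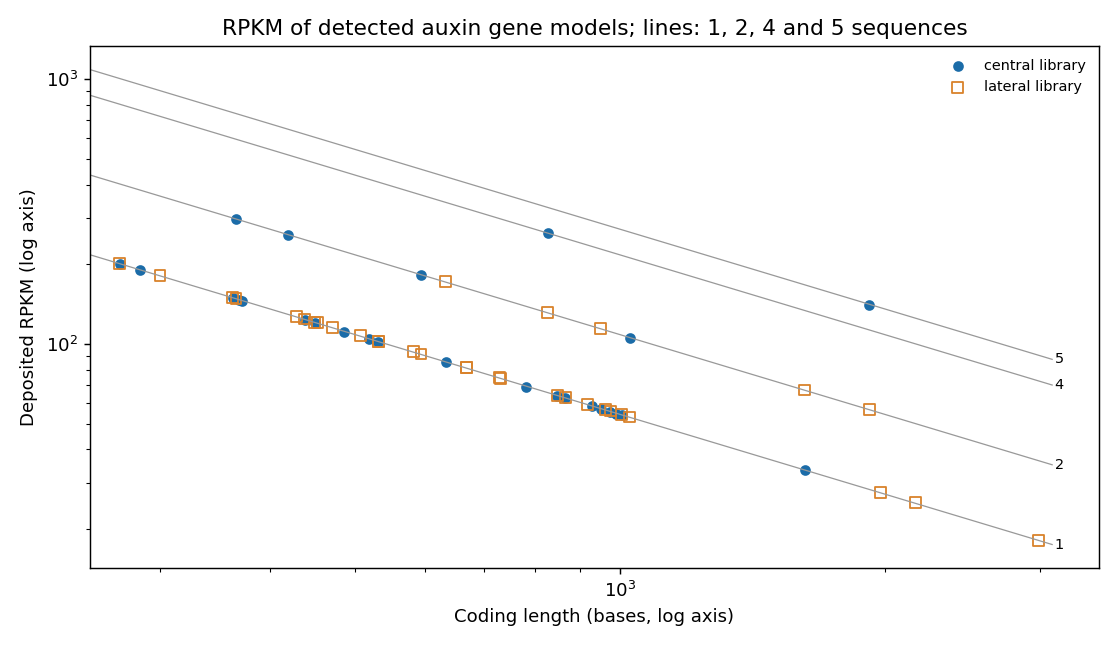
Deposited RPKM (vertical axis, log scale) against the coding length of the gene model in bases (horizontal axis, log scale) for the auxin genes with a sequence in the central library (filled circles) and the lateral library (open squares); grey lines show the RPKM of 1, 2, 4 and 5 sequences. Every point lies on a line, from 18.2 for 1 sequence over 2994 bases to 296 for 2 sequences over 366 bases.

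Set side by side, the sheets of differing genes held 6 auxin entries headed CP and 4 headed LP, out of 844 and 741. The GH3 entries on the LP sheet share the match to JAR1, an enzyme of jasmonate, and with each Arabidopsis match counted once 3 LP entries are left. Of the 157 members annotated in the whole table, the CP sheet lists 3 and the LP sheet 0, against 1.33% (CP) and 1.17% (LP) of all gene models. The remaining 7 became members through the sheets' own annotation, and the whole table describes none of them. The sheets were made by the authors on these same libraries with NOISeq, per the file headers, and are not independent evidence of a direction. Of the 6 CP entries, 3 had more central sequences, 2 had more lateral sequences and 1 had equal counts. Of the 4 LP entries, 2 had more central sequences, 1 had more lateral sequences and 1 had no sequence. Over the whole sheets, more central than lateral sequences were found for 67.7% (CP) and 33.2% (LP) of the entries whose counts differed. Equal counts were found for 230 CP and 233 LP entries, and no sequence at all for 190 and 159. The deposited FDR of entries without a sequence cannot come from the counts used here. None of the members is among the 215 genes with a log2 ratio deposited by the authors (0 of 164). The first line of that file gives the ratios as lateral over central, yet all 78 of its genes that are CP entries are positive and all 113 that are LP entries are negative, so the stated direction and the sheet names oppose each other.

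**Figure D5:**
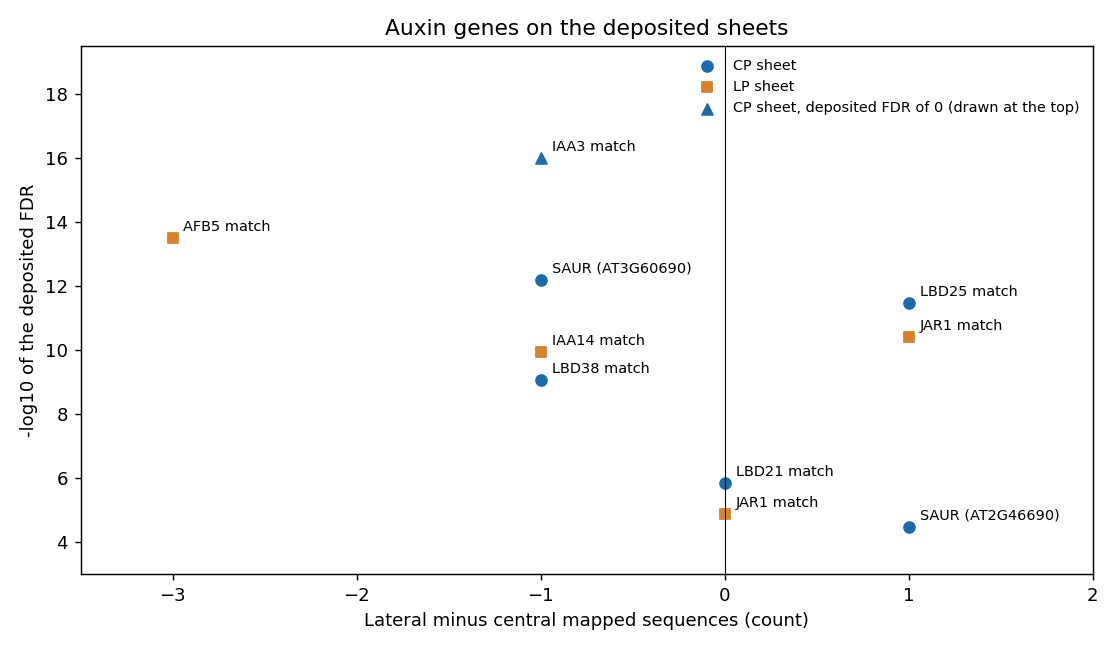
Deposited FDR of the 10 auxin entries on the sheets (vertical axis, -log10) against the lateral minus the central count of mapped sequences (horizontal axis), with CP entries as blue circles and LP entries as orange squares; the triangle marks the CP entry with a deposited FDR of 0, drawn at an arbitrary height. The AFB5 and IAA14 matches on the LP sheet lie to the left, with more central sequences, and the LBD25 match on the CP sheet lies to the right.

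Other genes of auxin synthesis, transport and signalling were searched by words that the membership rule does not use. They found 172 gene models, 58 of them with a sequence, and 68 central and 64 lateral sequences in all. Of these models, 22 had more central and 24 more lateral sequences, and none was called by the Fisher exact test (0 of 58). No gene model of the whole table was called either, so the absence of calls does not show that these genes were alike. Most of the sequences belonged to ABC transporters, a large family of which a few members carry auxin, with 50 central and 41 lateral sequences over 79 models. Amino acid transporters, the family that holds the AUX1 influx carriers, had 9 and 11. Peptidase M20 and amidohydrolase genes, a group with the enzymes that release auxin from its conjugates, had 4 and 5. SKP1, a subunit of the receptor's ubiquitin ligase, had 2 and 3. The words for TIR1 and AFB receptors, TOPLESS co-repressors, flavin monooxygenases, tryptophan aminotransferases, PIN carriers and RUB and AXR proteins found no further gene models.

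On the sheets all of these search words together found 1 CP and 3 LP entries. MDP0000822317, matched to cullin 1 (AT4G02570), the scaffold of that ligase, was on the CP sheet with a deposited FDR of 7.95e-06. It had 1 central sequence and none in the lateral library. MDP0000138851, matched to AT1G48910, was an LP entry with a deposited FDR of 4.05e-10. That Arabidopsis gene is YUC10, of the flavin monooxygenases that make auxin from indole-3-pyruvate, and the apple gene had 1 central sequence and none in the lateral library. The other 2 were amino acid transporter genes matched to AT2G39130, with no sequence in either library. Neither sheet had an entry matched to TIR1, AFB1, AFB2, AFB3, the co-repressor TPL, the response factors ARF5, ARF6, ARF7, ARF8 and ARF19, the carriers AUX1, PIN3 and ABCB19, the synthesis enzyme TAA1 or the ligase subunit ASK1. These 15, with cullin 1 and YUC10, were chosen after the data were seen. The sheets list only 1.33% (CP) and 1.17% (LP) of all gene models, so an absence from them says little about a gene.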

How the data were processed

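The authors deposited counts of mapped sequences per gene model, all and uniquely mapped, and RPKM, the count relative to gene length and library total. Trimmed contigs were the input, per the file headers. The p-value and FDR columns were deposited by the authors, from Kal's Z-test in the table and NOISeq on the sheets, and log2 ratios were deposited for 215 genes. For the aligner, assembler and gene models, names and versions are not given in the sources used. Another 12 columns of library values in the table stayed unused.

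Each gene model was tested with a two-sided Fisher exact test against all other sequences of each library, adjusted by Benjamini-Hochberg over gene models with at least 1 sequence. The quasi-likelihood test of edgeR needs replicates and was not run. Log2 ratios are lateral over central with 0.5 added to each count. Members and lists were chosen with earlier results of these data known. Named are members on a sheet, those with at least 2 sequences in a library and those with the most sequences in each family. Further detected members, the longest SAUR model among them, were named after their values were seen. Arabidopsis matches and sheet annotations are the authors'. Short gene names that the sheets do not give, such as SHY2, JAR1 and YUC10, were added for the matched Arabidopsis genes. The reference gene table matched 0 of the 164 identifiers, so no sequence or position is given. Alternatives covered scaling (TMM of edgeR 4.0.16, size factors of DESeq2 1.42.0), pseudocount, count minimum, unique mapping, unit and the sheets' threshold. Computation used Python 3.11.15, scipy 1.17.1, pandas 2.3.3, numpy 2.4.6, R 4.3.3 and matplotlib 3.10.9.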

Additional observations from a re-analysis of the deposited data

How the results depend on the processing

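Of 34 alternative values, 33 stayed within 1.5 times a count or within the counting interval of a ratio. Those intervals are wide, so staying within them says little about how stable a ratio is. With a pseudocount of 1 in place of 0.5, 18 members were past 2-fold in place of 28, since the AFB5 match and the 9 members with a lone central sequence then fall just short of it, while a lone lateral one, from the slightly smaller library, still reaches it. The log2 ratio of all auxin sequences, 0.05, was -0.04 on uniquely mapped sequences and -0.05 on RPKM, and that of LOB domain factors, 0.01, was -0.28 over members annotated in the table. For Aux/IAA repressors that restriction, chosen like the next after seeing the data, moved 0.28 to 0.80. Without the AFB5 match the ratio of all members was 0.18. The Fisher exact test called 0 members at minimums of 2 and 10 sequences and on unique sequences, at counts where it could call none. With a deposited FDR under 1e-06, 4 CP and 3 LP entries were left.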
